A study of Mus musculus with 10 samples.

Results

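The cerebellins and the C1q-like proteins are small secreted proteins that carry a globular domain like that of complement component C1q and act between neurons as organizers of synapses. The 8 mouse genes described here are C1ql1, C1ql2, C1ql3 and C1ql4 of the C1q-like family and Cbln1, Cbln2, Cbln3 and Cbln4 of the cerebellin family. They are 8 of the 48440 genes in a table of RPKM values (read numbers scaled to exon length and to the mapped reads of a lane), and they were chosen by family membership with their levels in these libraries already known. Their difference between cell types is therefore given as a description, with no test. The libraries came from both sensory cell types of the cochlea, the inner hair cells (IHCs) and the outer ones (OHCs), of untreated CBA/J mice, an inbred strain, aged 28 to 32 days by the sample labels. There were 2 IHC libraries and 3 OHC libraries, each from about 1000 cells that were freed by collagenase and gentle trituration, recognised by shape and drawn singly into a pipette. Cells of several mice were pooled in each library, so a library is a pool and not an animal, and no other genotype or treatment was included. By the study's methods each mouse gave cells of both types, so pools of the cell types may share animals. Each library was sequenced in 2 lanes, and the lanes were averaged.

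In the brain, Cbln1 is released by cerebellar granule cells and bridges neurexins on the parallel fibre terminal to receptors on the Purkinje cell. C1ql1 is released by climbing fibres and binds the adhesion receptor Adgrb3 (BAI3) on the same Purkinje cells, and C1ql2 and C1ql3 are released by hippocampal mossy fibres, where they bind neurexin-3 and kainate receptors. Cbln3 leaves the cell only in complexes with Cbln1, and Cbln4 binds neogenin and DCC as well as neurexins. In the cochlea, IHCs carry the ribbon synapses of the type I afferent fibres, whereas OHCs contact the sparse type II afferents and the cholinergic efferent fibres. The nerve endings themselves were not sampled, so a receptor on the neuronal side would not be seen here.

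The number of reads by which the RPKM values had been divided, inferred from the steps of low values, was 19987044 to 23083994 per library. This is below the sequencing depth that the study's methods describe, and whether the unit counted is a single read or a read pair is not given in the sources used here, so reads below means the smallest unit of the values. Everyday genes were present throughout, with 0 of 18 listed at 0 in any lane, while 28479 of all genes were at 0 in every lane. The 4 IHC markers (Otof, Slc17a8, Atp2a3, Tbx2) were all higher in IHCs, with a summed level of 782 to 807 RPKM against 27.6 to 29.9 RPKM in OHCs. The 4 OHC markers (Slc26a5, Ocm, Ikzf2, Chrna10) were all higher in OHCs, with 13734 to 14656 RPKM against 395 to 417 RPKM in IHCs. Markers of other cells differed as well. Those of supporting cells summed to 1016 to 1017 RPKM in IHCs and 554 to 560 RPKM in OHCs, with 5 of 6 genes higher in IHCs. Those of red blood cells summed to 296 to 306 RPKM in IHCs and 1244 to 1473 RPKM in OHCs, with 4 of 4 higher in OHCs. Those of fibrocytes and the stria summed to 138 to 139 RPKM and 327 to 360 RPKM, with 4 of 5 higher in OHCs. Those of leukocytes summed to 0.826 to 0.959 RPKM and 75.0 to 77.4 RPKM, with 3 of 6 higher in OHCs, 1 higher in IHCs and Cx3cr1 at 0. The part of these cells in the levels of the 8 genes was not tested.

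Of the 8 genes, 4 gave at least 1 read and 4 (C1ql2, C1ql4, Cbln2, Cbln4) were at 0 in all 10 lanes. OHCs held one member at a very high level, C1ql1, with Cbln1 far below it. IHCs held C1ql3 as their leading member and a lower level of C1ql1. Because these are sums over about 1000 cells, fewer expressing cells and less RNA in each cell cannot be told apart.

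Sequence similarity within the family bears on whether reads can be assigned to one member, since C1ql3 was detected and its closest relative C1ql2 was at 0. Among the 28 pairs of the 8 genes, the longest run of identical bases shared by annotated transcripts was 38 bases, between C1ql2 and C1ql3, followed by 29 bases for C1ql1 and C1ql4. Sequence reads were 100 bases long. The windows of 100 bases around that longest run are shown because they hold it, and other windows of the pair were not compared. They lie in the coding part of exon 1 of each gene in GRCm38 (GENCODE M21 transcripts), at chr1:120341591-120341690 on the plus strand for C1ql2 and at chr2:13010371-13010470 on the minus strand for C1ql3. They are written 5′ to 3′ with the run of 38 identical bases in capitals.
C1ql2: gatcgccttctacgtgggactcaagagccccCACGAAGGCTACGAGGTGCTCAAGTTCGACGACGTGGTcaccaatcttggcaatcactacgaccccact
C1ql3: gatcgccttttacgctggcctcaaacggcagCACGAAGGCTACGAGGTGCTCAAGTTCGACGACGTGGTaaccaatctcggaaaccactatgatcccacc
Over the 100 aligned bases, 84 were identical and 16 differed. C1ql1, C1ql4, Cbln1, Cbln2 and Cbln4 shared 0 stretches of 31 bases with the exons of any other annotated gene.

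**Figure D1:**
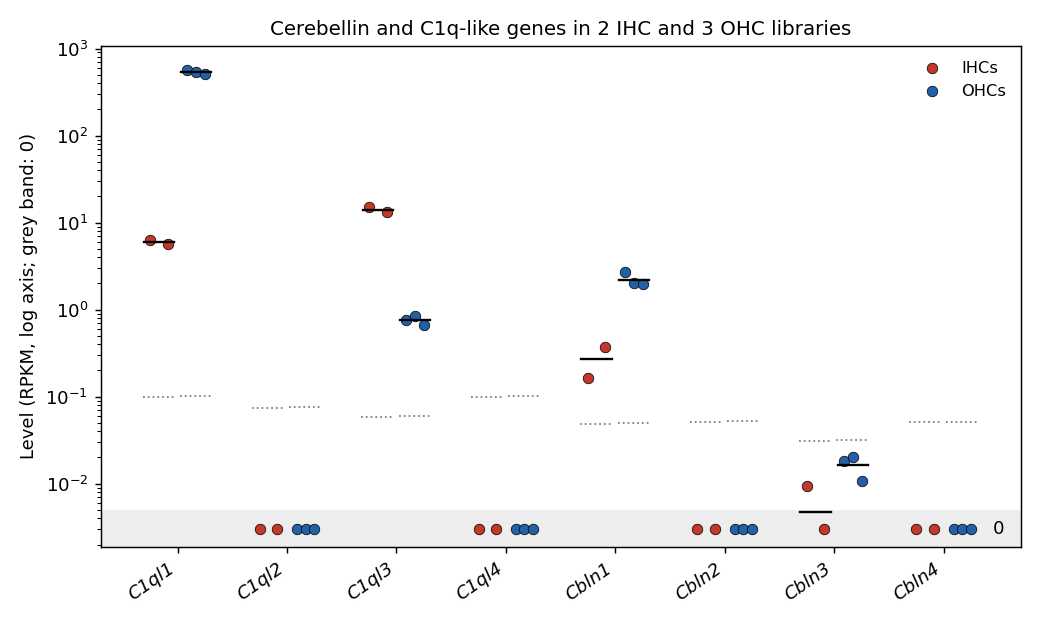
Level of each of the 8 genes in RPKM on a log axis, with a point for each library (IHCs red, OHCs blue), a black bar at the mean of a cell type and a dotted line at the level of 3 reads; the grey band holds libraries at 0. C1ql1 is highest in OHCs (509 to 569 RPKM) and C1ql3 in IHCs (13.3 and 14.9 RPKM), Cbln3 lies under its dotted line, and 4 genes sit in the band in every library.

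C1ql1 (ENSMUSG00000045532) lies at chr11:102939264-102946688 on the minus strand of GRCm38 and encodes the climbing fibre ligand of Adgrb3. Its level was 569, 542 and 509 RPKM in the 3 OHC libraries, from 19364, 16787 and 14970 reads. It was 6.22 and 5.70 RPKM in the 2 IHC libraries, from 204 and 171 reads. The libraries of the cell types did not overlap, and the gene ranked 53rd, 60th and 61st from the top of all genes in OHCs against 6103rd and 6304th in IHCs. The means were 540 ± 30.6 RPKM (SD, n = 3) and 5.96 ± 0.373 RPKM (SD, n = 2), a ratio of 90.6 and a difference (IHC minus OHC) of -6.48 ± 0.0608 (SE) on the log2(RPKM + 0.1) scale. Leaving out each library in turn moved the ratio between 86.8 and 94.8. The spread among OHC libraries was 5.66% of the mean, whereas counting error alone gave 0.719% to 0.817% in those libraries. In IHCs the spread was 6.26%, no wider than the counting error of 7.0% and 7.65%.

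C1ql3 (ENSMUSG00000049630), which encodes a mossy fibre organizer, lies at chr2:13003457-13011806 on the minus strand. Its level was 14.9 and 13.3 RPKM in IHCs, from 843 and 685 reads. In OHCs it was 0.752, 0.845 and 0.672 RPKM, from 44, 45 and 34 reads. Every IHC library lay above every OHC library, and all 5 lay above the level of 3 reads, which was at most 0.0592 RPKM. The means were 14.1 ± 1.19 RPKM (SD, n = 2) and 0.756 ± 0.0866 RPKM (SD, n = 3), a ratio of 18.7 and a log2 difference of 4.06 ± 0.116 (SE). The ratio was 17.5 to 19.8 when each library was left out in turn. The gene ranked 3675th and 3970th from the top in IHCs, so its level there was moderate, and far from that of C1ql1 in OHCs.

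The locus of C1ql3 holds other genes that moved with it, and the library kit does not mark strand. The annotation of Gm37811, a gene on the opposite strand whose existence awaits experimental proof, covers 61.0% of the exon bases of C1ql3, including the stretch printed above. Gm37811 was at 1.02 and 0.981 RPKM in IHCs and 0.0666, 0.0366 and 0.0194 RPKM in OHCs, so reads from the strands there cannot be told apart. A second such gene, Gm37824, overlaps 3.2% of the exon bases and was at 0 in every library. Downstream, Pter, which encodes a phosphotriesterase-related protein, runs toward C1ql3 and ends at 13003455, leaving 1 base between the annotated 3′ ends. Pter was at 11.01 and 10.39 RPKM in IHCs and 0.972, 0.763 and 0.973 RPKM in OHCs. How far reads running past either end enter the value of the other gene was not tested.

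**Figure D2:**
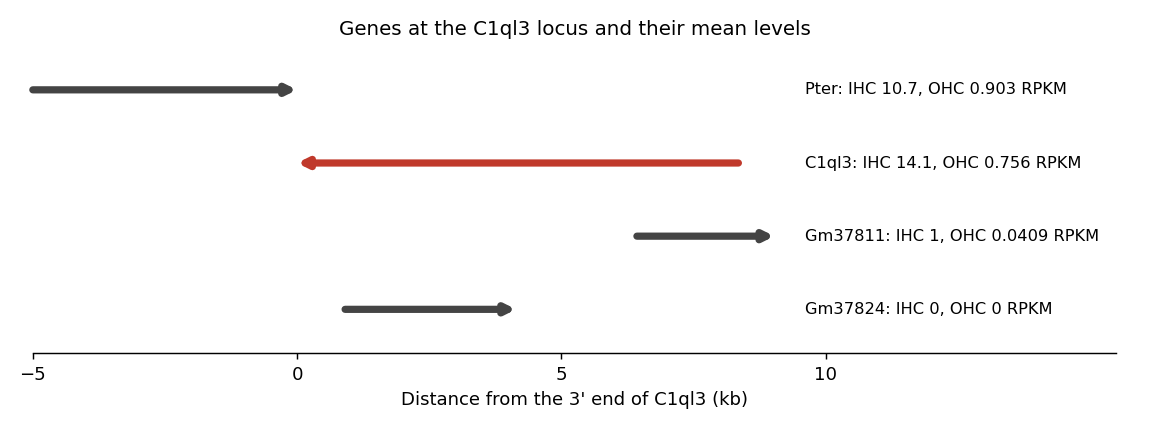
Genes at the C1ql3 locus drawn as arrows in their direction of transcription, against the distance from the 3′ end of C1ql3 in kb (Pter is cut at the left), with the mean level of each in IHCs (n = 2) and OHCs (n = 3). Pter and C1ql3 meet end to end with means of 10.7 and 14.1 RPKM in IHCs, and Gm37811 overlaps the start of C1ql3 on the other strand.

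Cbln1 (ENSMUSG00000031654), the cerebellin released from parallel fibres, lies at chr8:87468405-87472609 on the minus strand. Its level was 2.70, 2.01 and 1.94 RPKM in OHCs, from 189, 128 and 118 reads. In IHCs it was 0.163 and 0.372 RPKM, from 11 and 23 reads. The cell types did not overlap, although the IHC libraries differed from each other more than for C1ql1 or C1ql3, with a spread of 55.3% of the mean. The means were 2.22 ± 0.417 RPKM (SD, n = 3) and 0.267 ± 0.148 RPKM (SD, n = 2), a ratio of 8.29 and a log2 difference of -2.70 ± 0.286 (SE). One IHC library decides the size of this ratio, which was 13.6 without IHC replicate 2 and 5.96 without IHC replicate 1. The long noncoding RNA gene Gm2694 spans the Cbln1 locus on the opposite strand, with 0 exon bases in common. It was at 7.53, 6.66 and 6.80 RPKM in OHCs and 1.23 and 1.54 RPKM in IHCs, above Cbln1 in every library and higher in the same cell type.

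Cbln3 (ENSMUSG00000040380), at chr14:55878913-55884392 on the minus strand, encodes the cerebellin that needs Cbln1 for its secretion. It had 1 and 0 reads in the IHC libraries and 2, 2 and 1 reads in the OHC libraries. All were under the level of 3 reads, 0.0275 to 0.0318 RPKM, and no ratio is given. Its highest value, 0.0200 RPKM, was far below that of Cbln1 in the same OHC library.

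The other 4 members were listed at 0 in every lane, and the values below are the levels that 3 reads in a library would have given. For C1ql2 (ENSMUSG00000036907, chr1:120340582-120343174, plus strand), a partner of C1ql3 at mossy fibres, this limit was 0.0650 to 0.0750 RPKM. For C1ql4 (ENSMUSG00000001076, chr15:99084086-99087817, minus strand) it was 0.0882 to 0.102 RPKM. For Cbln2 (ENSMUSG00000024647, chr18:86711110-86718283, plus strand), a neurexin ligand like Cbln1, it was 0.0449 to 0.0519 RPKM. For Cbln4 (ENSMUSG00000067578, chr2:172036233-172043466, minus strand), the ligand of DCC and neogenin, it was 0.0448 to 0.0517 RPKM. These limits cover counting error only and rest on the annotated exon lengths, which values of 0 cannot check. None of the 4 genes was detectable in either cell type at this depth, and levels below these limits would not have been seen.

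Ordered by level per exon length, the members stood differently in the cell types. In IHCs, C1ql3 (13.3 and 14.9 RPKM) was followed by C1ql1 (5.70 and 6.22 RPKM), Cbln1 (0.163 and 0.372 RPKM) and Cbln3 (0 and 0.00949 RPKM). In OHCs, C1ql1 was followed by Cbln1 (1.94 to 2.70 RPKM), C1ql3 (0.672 to 0.845 RPKM) and Cbln3 (0.0107 to 0.0200 RPKM). No neighbours in either order overlapped between libraries, while the 4 genes at 0 have no order. The levels of the 8 genes added up to 543 ± 30.97 RPKM in OHCs (SD, n = 3) and 20.3 ± 1.42 RPKM in IHCs (SD, n = 2). C1ql1 made up 99.4% to 99.5% of that sum in OHCs and 29.2% to 29.5% in IHCs. C1ql3 made up 68.6% and 70.0% of the sum in IHCs and 0.131% to 0.155% in OHCs.

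**Figure D3:**
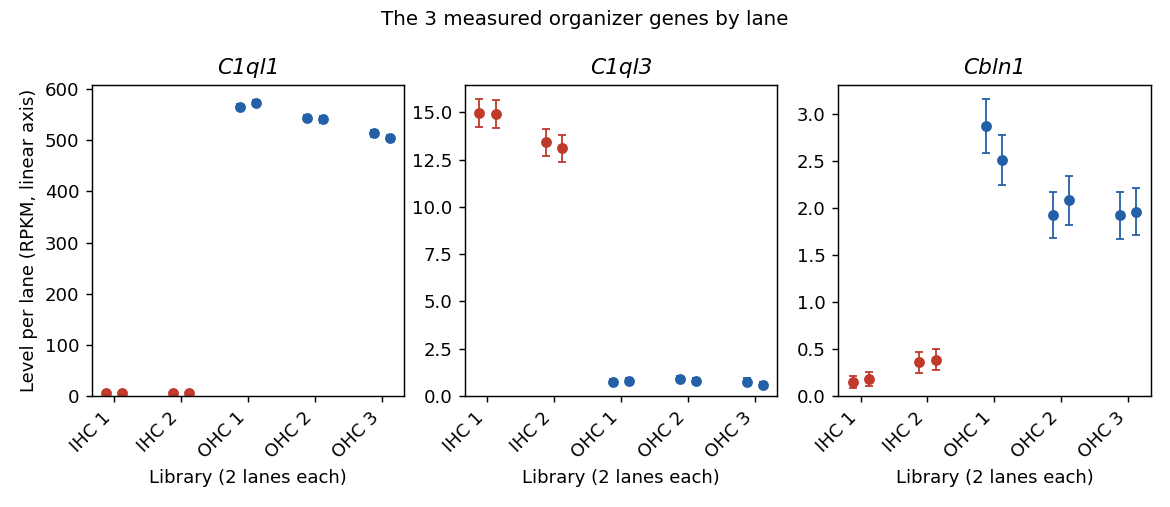
Level per sequencing lane (RPKM, linear axis) of C1ql1, C1ql3 and Cbln1 in the 2 lanes of each IHC (red) and OHC (blue) library, with bars of 1 counting error (the square root of the reads). Lanes of a library lie close together in every panel, and the IHC libraries of Cbln1, at 0.163 and 0.372 RPKM, differ relatively the most.

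Lanes of a library gave the same picture as the libraries. Among 14 comparisons of lanes of the 3 measured members, 0 reached an adjusted p of 0.05 by an exact binomial test, and the lowest adjusted p was 1. The test was adjusted over 39 such comparisons that included the receptors. C1ql1, for example, had 9634 and 9730 reads in the lanes of OHC replicate 1, at 565 and 574 RPKM.

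In the fit over all genes (limma, Benjamini-Hochberg adjusted), 16462 genes had at least 0.1 RPKM in at least 2 libraries. Of these, 5659 (34.4%) were called higher in IHCs and 5663 (34.4%) were called higher in OHCs. Only 3 of the 8 members passed this filter, and 1 of them was called higher in IHCs and 2 were called higher in OHCs. Since the members were chosen with these values known, nothing is read from that count. The share of all genes without overlap between the cell types is not given here, so nothing is read from a member's lack of overlap either. The 14 alternative settings that were tried left the count as it was.

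The level of each member in the other hair cell type can be set beside that of the markers. The mean of C1ql1 in IHCs was 1.10% of that in OHCs, and the same share was 1.73% to 10.2% for the 4 OHC markers, with Slc26a5 (prestin, the motor protein of OHCs) at 1.73% and Ocm (the calcium buffer oncomodulin) at 2.96%. The mean of C1ql3 in OHCs was 5.36% of that in IHCs, and the same share was 2.0% to 6.56% for the 4 IHC markers, with Slc17a8 (the vesicular glutamate transporter of IHCs) at 5.60%. The share of C1ql1 was thus below that of every OHC marker, and that of C1ql3 lay within the range of the IHC markers. Cbln1 in IHCs stood at 12.1% of its OHC mean, above all 4 OHC markers, on 34 reads. Whether the lower levels come from the cells themselves was not tested.

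**Figure D4:**
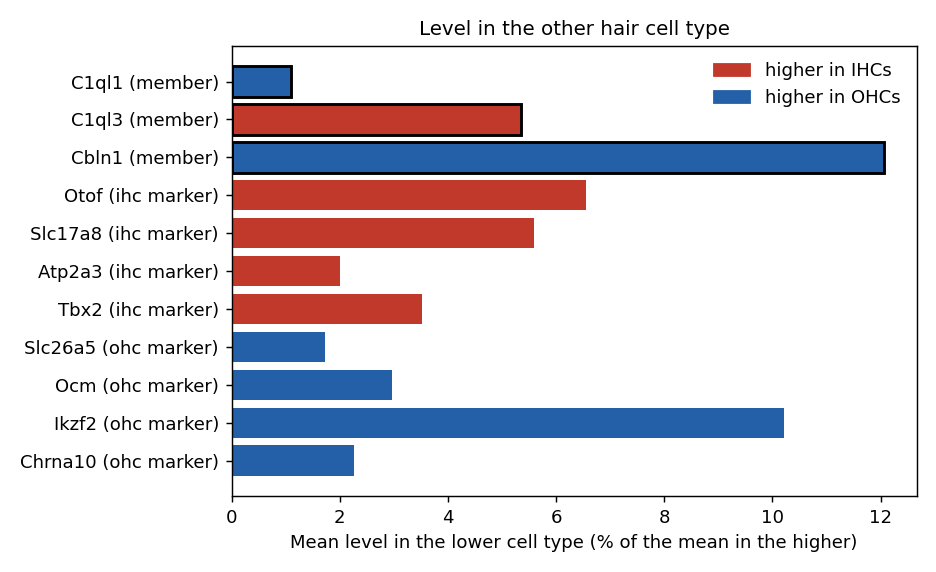
Mean level in the lower cell type as a percent of the mean in the higher one (IHCs n = 2, OHCs n = 3), for C1ql1, C1ql3 and Cbln1 (outlined) and for 8 hair cell markers, coloured by the cell type with the higher mean. C1ql1 has the shortest bar of its colour at 1.10%, C1ql3 (5.36%) lies among the IHC markers and Cbln1 (12.1%) beyond the OHC markers.

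The genes whose pattern over the 5 libraries was nearest to that of a member were found by the Euclidean distance of log2(RPKM + 0.1), which takes level and cell type together. For C1ql1 they were Slc26a5 (distance 0.949, means 9.51 RPKM in IHCs and 549 RPKM in OHCs), the nicotinic receptor subunit gene Chrna10 (1.26) and the water channel gene Aqp11 (2.15). For C1ql3 they were the growth factor gene Fgf10 (0.582), the axonemal dynein gene Dnaic2 (0.602) and the adjacent gene Pter (0.816). For Cbln1 they were the deubiquitinase gene Usp18 (0.480), the sodium-calcium exchanger gene Slc8a2 (0.520) and Nradd (0.644). These likenesses are a description over 5 libraries.

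The receptors and partners of the family on record reached at most 2.69 RPKM in the hair cells themselves. Of 15 genes, 6 passed the filter, of which 1 was called for IHCs and 4 for OHCs, while 1 missed the threshold. Among all genes tested, 34.4% were called in each direction. The median log2 difference of the 6 genes (IHC minus OHC) was -1.62, beside -0.00527 over all genes tested. Adgrb2, Nrxn2 and Nrxn3 reached 0.1 RPKM only in OHC libraries, so the filter admitted them through the cell type where they are higher. Nothing about the direction of the list is therefore read from its count or median. Adgrb3, the receptor of the C1q-like proteins, was at 0 in both IHC libraries, with a mean of 0.000873 RPKM in OHCs. Its relative Adgrb2 was at 1.52, 1.84 and 1.54 RPKM in OHCs and 0.0970 and 0.0909 RPKM in IHCs, which did not overlap. Adgrb2 was called higher in OHCs (log2 difference -3.16 ± 0.147 SE, limma adjusted p = 1.71e-05).

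The glutamate receptor gene Grid1 was at 0 throughout. Neurexins bind cerebellins from the presynaptic side. Nrxn3 was listed at 0 in both IHC libraries and at 0.578, 0.691 and 0.639 RPKM in OHCs, and was higher in OHCs (limma adjusted p = 3.84e-05). Markers of neurons summed to 187 to 192 RPKM in IHCs and 130 to 131 RPKM in OHCs, with 3 of 7 higher in each cell type and Prph at 0, and their part in the level of Nrxn3 was not tested.

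Nrxn2, named after its values were seen, was at 0.0065 and 0.0178 RPKM in IHCs and 0.151, 0.0827 and 0.152 RPKM in OHCs. Its call as higher in OHCs (log2 difference -1.01 ± 0.236 SE, limma adjusted p = 0.0106) did not hold without IHC replicate 1 (adjusted p = 0.107), without IHC replicate 2 (adjusted p = 0.0778) or with the replicate block (adjusted p = 0.0589). Among the kainate receptor genes, Grik5 was at 2.57, 2.02 and 2.47 RPKM in OHCs and 0.383 and 0.465 RPKM in IHCs, whereas Grik2 was at 0. Grik5 was higher in OHCs (log2 difference -2.22 ± 0.149 SE, limma adjusted p = 6.81e-05). Neo1, which encodes the Cbln4 partner neogenin, was at 2.48 and 2.65 RPKM in IHCs and 2.33, 2.69 and 2.33 RPKM in OHCs. These overlapped, and the test gave an adjusted p of 0.570 (limma). The mean of Neo1 was the highest of the list in each cell type, although Grik5 lay above it in OHC replicates 1 and 3. Dcc was at 0 in every library.

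**Figure D5:**
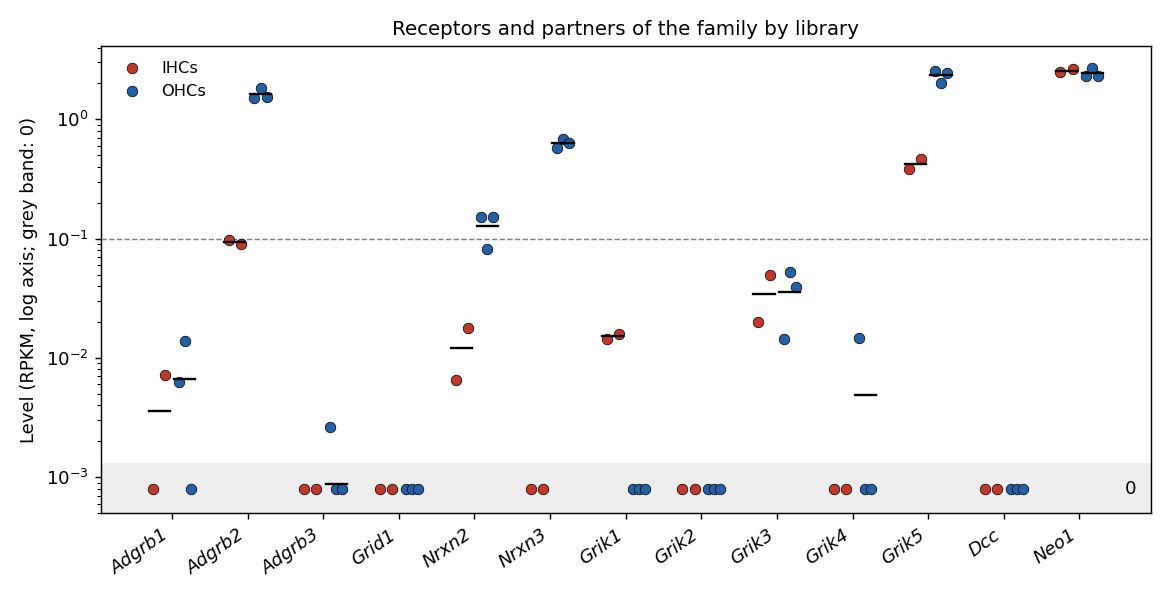
Level of 13 receptors and partners in RPKM on a log axis, with a point for each library (IHCs red, OHCs blue) and a black bar at the mean; the grey band holds libraries at 0 and the dashed line marks the 0.1 RPKM of the filter. Adgrb2, Nrxn3 and Grik5 are higher in the OHC libraries, and Neo1 overlaps.

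Genes for other proteins with a C1q domain or its relatives were counted from a list of 22 in the table. Of 12 that passed the filter, 1 was called higher in IHCs, 6 were called for OHCs and 5 missed the threshold, with a median log2 difference of -0.251. The share called over all genes tested was 34.4% in each direction. C1qtnf4 had the highest level of the list in both cell types, at 10.6 and 12.9 RPKM in IHCs and 17.4, 14.4 and 13.8 RPKM in OHCs, and was slightly higher in OHCs (limma adjusted p = 0.0414). Otol1, which encodes the inner ear matrix protein otolin, was at 1.02 and 0.863 RPKM in IHCs and at most 0.0690 RPKM in OHCs (log2 difference 2.87 ± 0.211 SE, limma adjusted p = 9.78e-05). Otol1 was the call in IHCs. It reached 0.1 RPKM only in IHC libraries, and C1qtnf1, a call in OHCs, did so only in OHC libraries. The filter thus admitted each through the cell type where it is higher. Nothing about the direction of the list is therefore read from its count or median. The number of calls in IHCs was 0 without IHC replicate 1 or without IHC replicate 2 and 3 without OHC replicate 2, and that in OHCs was 3 without IHC replicate 1.

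Emilin2, a matrix glycoprotein gene, had means of 2.09 ± 0.0651 RPKM in IHCs (SD, n = 2) and 6.06 ± 0.302 RPKM in OHCs (SD, n = 3), and was higher in OHCs (limma adjusted p = 1.80e-05). Col8a1, a collagen gene, was also higher in OHCs (log2 difference -1.39 ± 0.161 SE, limma adjusted p = 6.25e-04). C1qa, a subunit gene of complement C1q that macrophages express, was at 0.346 and 0.236 RPKM in IHCs and 1.37, 0.641 and 1.11 RPKM in OHCs (log2 difference -1.503 ± 0.323 SE, limma adjusted p = 0.00771). Among the leukocyte markers, the macrophage gene Csf1r went the other way, with means of 0.446 ± 0.00617 RPKM in IHCs (SD, n = 2) and 0.00623 ± 0.00542 RPKM in OHCs (SD, n = 3), and Cx3cr1 was at 0. The higher sum of that list in OHCs came from the neutrophil genes S100a8 (27.5 RPKM), S100a9 (26.3 RPKM) and Ngp (22.3 RPKM). The part of such cells in C1qa was not tested. The genes of the other C1q subunits differed less from cell type to cell type. C1qb had means of 1.02 RPKM in IHCs and 1.44 RPKM in OHCs (log2 difference -0.454 ± 0.159 SE, limma adjusted p = 0.046). C1qc had means of 0.569 RPKM in IHCs and 0.446 RPKM in OHCs, and its libraries overlapped (limma adjusted p = 0.249).

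Other secreted organizers of synapses were counted from a list of 18 genes. Of 10 that passed the filter, 0 were called higher in IHCs, 9 were called for OHCs and 1 missed the threshold, with a median log2 difference of -1.34. The share called over all genes tested was 34.4% in each direction. Thbs1, Thbs2 and Gpc6 reached 0.1 RPKM only in OHC libraries, so the filter admitted them through that cell type. Nothing about the direction of the list is therefore read from its count or median. At an unadjusted p under 0.05 (limma), 1 gene of the list was higher in IHCs, the glypican gene Gpc4, which was named after its values were seen (log2 difference 0.19 ± 0.0721 SE, adjusted p = 0.0604). Nptx1, which encodes the AMPA receptor clustering protein neuronal pentraxin-1, was at 9.775, 8.240 and 8.997 RPKM in OHCs and 2.04 and 1.86 RPKM in IHCs (log2 difference -2.15 ± 0.0906 SE, limma adjusted p = 1.19e-05). Thbs1, which encodes the astrocyte-derived organizer thrombospondin-1, was listed at 0 in IHCs and at 1.134, 1.497 and 1.252 RPKM in OHCs. Its relative Thbs2 (-2.61 ± 0.172 SE, limma adjusted p = 6.30e-05) and the glypican gene Gpc6 (-2.66 ± 0.143 SE, limma adjusted p = 2.88e-05) were higher in OHCs by log2 difference. Sparc, a matrix protein gene and the highest of the list in both cell types, had means of 251 ± 4.06 RPKM in IHCs and 413 ± 3.51 RPKM in OHCs. The sum of fibrocyte and stria markers given above was also higher in OHCs, and its part in Sparc, Thbs1 and Thbs2 was not tested.

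Genes of the efferent synapse, which OHCs receive, were counted as well. In a list of 10 genes for the cholinergic receptor, its coupled channel and scaffold proteins of efferent and cerebellar synapses, 9 passed the filter, with 2 called higher in IHCs, 5 called higher in OHCs and 2 not past the test. Among all genes tested, 34.4% were called in each direction, and the median log2 difference of the list was -0.624. The calls in IHCs included Gopc, named after its values were seen, and 1 of the 2 was left without IHC replicate 1 or without IHC replicate 2. Chrna10, also an OHC marker above, was at 529, 463 and 452 RPKM in OHCs and 10.4 and 11.3 RPKM in IHCs (log2 difference -5.46 ± 0.0777 SE, limma adjusted p = 2.94e-07). Chrna9, the other subunit of the receptor, was at 323, 328 and 325 RPKM in OHCs and 29.2 and 27.4 RPKM in IHCs (log2 difference -3.52 ± 0.0348 SE, limma adjusted p = 8.99e-08). In each OHC library C1ql1 was above both per exon length, and in each IHC library it was below both. This order rests on lane averages. In OHC replicate 1, Chrna10 was at 442 RPKM (13451 reads) in lane 1 and 616 RPKM (18630 reads) in lane 2. In lane 2 it lay above C1ql1 (574 RPKM), and the lanes of Chrna10 were not tested. The other genes of the list were lower per exon length in OHCs, with means of 15.1 RPKM for Kcnn2, 0.979 RPKM for Shank2 and 0.929 RPKM for Rapsn, the receptor-clustering gene. The calcium-activated potassium channel gene Kcnn2 (-3.37 ± 0.0554 SE, limma adjusted p = 4.39e-07) and the scaffold gene Shank2 (-1.43 ± 0.127 SE, limma adjusted p = 2.07e-04) were also higher in OHCs by log2 difference.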

How the data were processed

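The authors deposited RPKM values for 48440 genes in 10 columns, 1 per lane. By the study's methods, paired reads of 100 bases from SMART-Seq V4 and Nextera libraries, which do not mark strand, were placed on GRCm38 by CLC Genomics Workbench and genes were estimated with HTSeq count. Versions are not given in the sources used here. Lanes were averaged per library (2 IHC, 3 OHC). Genes that reached 0.1 RPKM in 2 or more libraries were tested as log2(RPKM + 0.1) with limma 3.58.1 in R 4.3.3, with the variance trend, two-sided, Benjamini-Hochberg adjusted over 16462 genes at a threshold of 0.05, without a block. The p-values reflect no more than the spread between these pooled libraries.

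Reads were recovered as RPKM times exon length (GENCODE M21) times the reads of the lane, 9932733 to 11571938. With the annotated length, 69.8% to 70.6% of the values above 0 were whole within 0.01 reads, because other genes had other lengths in the authors' annotation. C1ql1, C1ql3 and Cbln1 came out whole at the annotated length. For Cbln3, 60 lengths gave whole reads, and the length nearest to the annotated 4866 bases, 4725 bases, was taken. Its read numbers and 3-read limits rest on that choice. Recovered reads gave the 3-read limits, the counting errors and the exact lane tests, and not the fit. Shared sequence was searched as words of 31 bases in the exons of all genes. Python 3.11.15 served for the rest.

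The members and lists were chosen with earlier results of these data known. Named are all 8 members, and of each list the gene of highest mean in each cell type and up to 4 genes past the test with the largest absolute log2 difference. For members of at least 1 RPKM, the 3 nearest genes are named, without predicted genes and pseudogenes. Nrxn2, Gpc4, Gopc, C1qtnf1, C1qb, C1qc and the genes overlapping or adjoining members were named after their values were seen. C1qtnf12 was not analysed here, and single values of some listed genes are not reported here. The same library number in IHCs and OHCs marks no shared source in the labels. Which IHC and OHC pools share mice is not given in the sources used here. The fit therefore treats the libraries as unpaired, and a pairing by animal could not be tested. Alternatives changed the pseudocount, filter, scaling, lanes, variance trend, block and libraries.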

Additional observations from a re-analysis of the deposited data

How the results depend on the processing

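Under 14 alternative settings, the count of members called stayed at 1 for IHCs and 2 for OHCs. Of 313 alternative values, 294 were the same by a rule for each kind of value. A count had to stay within 1.5 times. A log2 difference or ratio of a member had to move by less than the combined SD between libraries on the log2 scale. A log2 difference of a receptor or partner had to keep its direction and its side of the threshold. Reversal could be scored only for log2 differences, and 0 of them reversed. The log2 difference lay between -6.55 and -6.28 for C1ql1, between 3.10 and 4.21 for C1ql3 and between -3.13 and -1.34 for Cbln1. A pseudocount of 1 RPKM gave -6.28, 3.10 and -1.34, the smallest of each. Receptors and partners called higher in IHCs were 2 with no filter and 0 when 1 RPKM was required, and those called higher in OHCs were 2 with the latter, which removes low genes by its construction. Leaving out each library in turn gave 3 to 4 partners higher in OHCs, 1 in IHCs, 4337 to 5753 genes higher in IHCs and 4632 to 5651 higher in OHCs. Counts of the 3 further lists under these settings were added after seeing the data.

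With the library number as a replicate block, 5060 genes were called higher in IHCs and 4985 in OHCs, and the members' calls were as before. Deviations of same-numbered libraries correlated at 0.0125 and -0.0197. With 2 IHC libraries their deviations mirror each other, and pools of different numbers may share mice. These values therefore cannot decide whether a pairing exists. The block rests on a number alone. Depth limits Cbln1 in IHCs (34 reads), Cbln3 and the members at 0.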

Other observations

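All 3 measured members adjoin or overlap a gene on the opposite strand that is higher in the same cell type, a set noticed after the values were seen. Gm37824, which also overlaps C1ql3, was at 0, and genes flanking C1ql1 and Cbln1 without overlap were not compared. Among all genes tested, 34.4% were called in each direction. No share of opposite-strand neighbours alike in direction is given here, so nothing is read from this set. Beside Pter and Gm37811 at C1ql3 and Gm2694 at Cbln1, the long noncoding RNA gene Gm26668, whose span holds C1ql1 with 0 exon bases in common, was at 0.334, 0.302 and 0.317 RPKM in OHCs and 0.0247 and 0.0135 RPKM in IHCs. Its libraries did not overlap between the cell types, and its OHC level was far under that of C1ql1. With a kit that does not mark strand, the source of such reads was not tested.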
